A study of Mus musculus with 6 samples.

Results

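Smooth muscle contractile genes were examined in satellite cells, the muscle stem cells of adult skeletal muscle, from control mice and from mice with a conditional knockout (cKO) of the histone chaperone gene Hira. The set holds 10 genes, which were taken by their symbol in the GENCODE M21 annotation from the 55536 genes of the deposited count files. The 8 contractile genes are Acta2, Actg2, Tagln, Cnn1, Myh11, Myl9, Mylk and Smtn, and the regulators are Srf and Myocd. RNA-seq was performed on 3 samples of each group. The control genotype was Pax7CreErt2;Hira fl/+. The cKO genotype was Pax7CreErt2;Hira fl/fl, so that both carried the Pax7-driven, tamoxifen-inducible Cre and at least 1 floxed Hira allele. The sample labels name the controls WT and the strain C57BL/6J. All mice were adult males that had received tamoxifen and a BaCl2 injury of the muscle. Cells were sorted as CD34 and ITGA7 double positive 5 days post-injury, cultured for 48 h and collected, and 400 ng of total RNA was depleted of ribosomal RNA and read as single-end 75 bp fragments. The samples are described as independent RNA samples, and nothing ties each one to a separate mouse, so the p-values measure the spread between these samples.

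Smooth muscle contracts when the myosin light chain kinase MYLK phosphorylates regulatory light chains such as MYL9 on smooth muscle myosin (MYH11), which then pulls on the smooth muscle actins ACTA2 and ACTG2. Calponin (CNN1), transgelin (TAGLN, also known as SM22) and smoothelin (SMTN) bind the actin filament. Most of these genes carry CArG boxes, the DNA element bound by serum response factor (SRF), which acts with myocardin (MYOCD) in smooth and cardiac muscle and with the related MRTF proteins in many other cells. Acta2 and several of its partners are also known from activated fibroblasts and from immature skeletal muscle cells, so they do not mark smooth muscle alone.

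The CArG box is written CC, 6 bases that are each A or T, and GG, which reads the same on both strands. The RefSeq promoter windows on GRCm38.p6 cover 250 bases before to 50 bases after a RefSeq transcript start. Of the 10 genes, 6 had a window at a single such start (Acta2, Cnn1, Myl9, Mylk, Smtn and Srf). A CArG box was found in 2 of them, Myl9 and Srf. A CArG-like site, defined here as the same element with exactly 1 of the inner 6 bases a C or G, was found in 2, Acta2 and Myl9. Of all 32544 windows of this length, 1.64% held a CArG box and 8.46% a CArG-like site. The windows of these 3 genes are printed because they carry the element through which SRF acts or a form of it, with the sites in capitals.
Myl9, chr2:156775214-156775513, plus strand: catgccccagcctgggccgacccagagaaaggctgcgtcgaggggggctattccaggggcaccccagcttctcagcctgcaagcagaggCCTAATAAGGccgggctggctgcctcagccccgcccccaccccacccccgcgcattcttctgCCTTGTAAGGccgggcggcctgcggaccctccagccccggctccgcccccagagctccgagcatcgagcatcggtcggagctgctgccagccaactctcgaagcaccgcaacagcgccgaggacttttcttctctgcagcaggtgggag
Srf, chr17:46556113-46556412, minus strand: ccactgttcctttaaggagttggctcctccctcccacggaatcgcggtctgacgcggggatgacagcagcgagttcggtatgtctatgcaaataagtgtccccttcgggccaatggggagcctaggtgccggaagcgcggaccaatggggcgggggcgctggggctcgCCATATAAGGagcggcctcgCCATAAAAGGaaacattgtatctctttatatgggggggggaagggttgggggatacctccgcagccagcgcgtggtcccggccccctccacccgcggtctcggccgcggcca
Acta2, chr19:34255324-34255623, minus strand: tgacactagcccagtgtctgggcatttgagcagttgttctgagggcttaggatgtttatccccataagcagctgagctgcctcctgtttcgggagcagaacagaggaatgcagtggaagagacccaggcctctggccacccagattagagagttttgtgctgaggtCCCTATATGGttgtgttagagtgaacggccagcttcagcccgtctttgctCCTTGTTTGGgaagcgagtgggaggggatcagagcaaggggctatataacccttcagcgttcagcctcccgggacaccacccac
Counted with the first base of the RefSeq transcript as position 0, the Myl9 box began at -161 and its CArG-like site at -99. The boxes of Srf, which is known to bind its own promoter, began at -82 and -62. The sites of Acta2 began at -84 and -34. The windows of Cnn1, Mylk and Smtn held neither kind of site. Those of Mylk (34784700 to 34784999) and Smtn (3539243 to 3539542) lie inside the gene spans given below. They do not cover the outermost annotated start of either gene. A match is a description of the letters, and binding of SRF was not measured here.

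The samples held 47944477 to 63323577 counts on genes. Levels are given as CPM, the counts of a gene per 1000000 counts of its sample, and comparisons between genes as CPM per kb of annotated exon. Differences between cKO and control were tested for all 22404 genes that passed a filter on low counts, with edgeR's quasi-likelihood test and Benjamini-Hochberg adjustment, and log2 fold changes (log2FC) were fitted after TMM scaling and are given ± their standard error (SE) where one is printed. All 10 genes passed the filter. Hira itself had 341 to 375 counts in control and 161 to 293 in cKO, with log2FC at -0.43 (edgeR adjusted p = 0.0237), and cKO replicate 1 was the lowest. These counts cover the whole gene and do not separate the floxed part. The satellite cell and myoblast markers were well detected in every sample. Their summed level was 7194 to 7216 CPM in control and 6443 to 6673 CPM in cKO, and 8 of 10 were downregulated.

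The contractile genes were mostly higher in cKO. Of the 10 genes, 7 were upregulated (Cnn1, Myh11, Actg2, Mylk, Myl9, Tagln and Acta2), against 9.38% of all genes tested that were upregulated. The 10 genes were chosen with earlier results of these data known. Over all genes, 2101 were upregulated and 1448 downregulated, or 2462 and 1057 when scaled by total counts alone, and 7 of the 10 genes were upregulated under either scaling. The other 3 (Smtn, Srf and Myocd) did not pass the test, and none was downregulated in edgeR's test, against 6.46% of all genes, also at an unadjusted p under 0.05 (0 genes) or with DESeq2 (0 genes). The rises differed widely, from a log2 fold change of 0.09 for Acta2 to 1.21 for Cnn1, with a median of 0.33 over the 10 genes and -0.0011 over all genes tested. In each of the 7 upregulated genes every cKO sample lay above every control sample in CPM, as was the case for 20.3% of all genes tested, while 31.4% were apart in either direction. In bulk RNA, a change in the number of cells that express a gene and a change in its RNA per cell cannot be told apart.

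**Figure D1:**
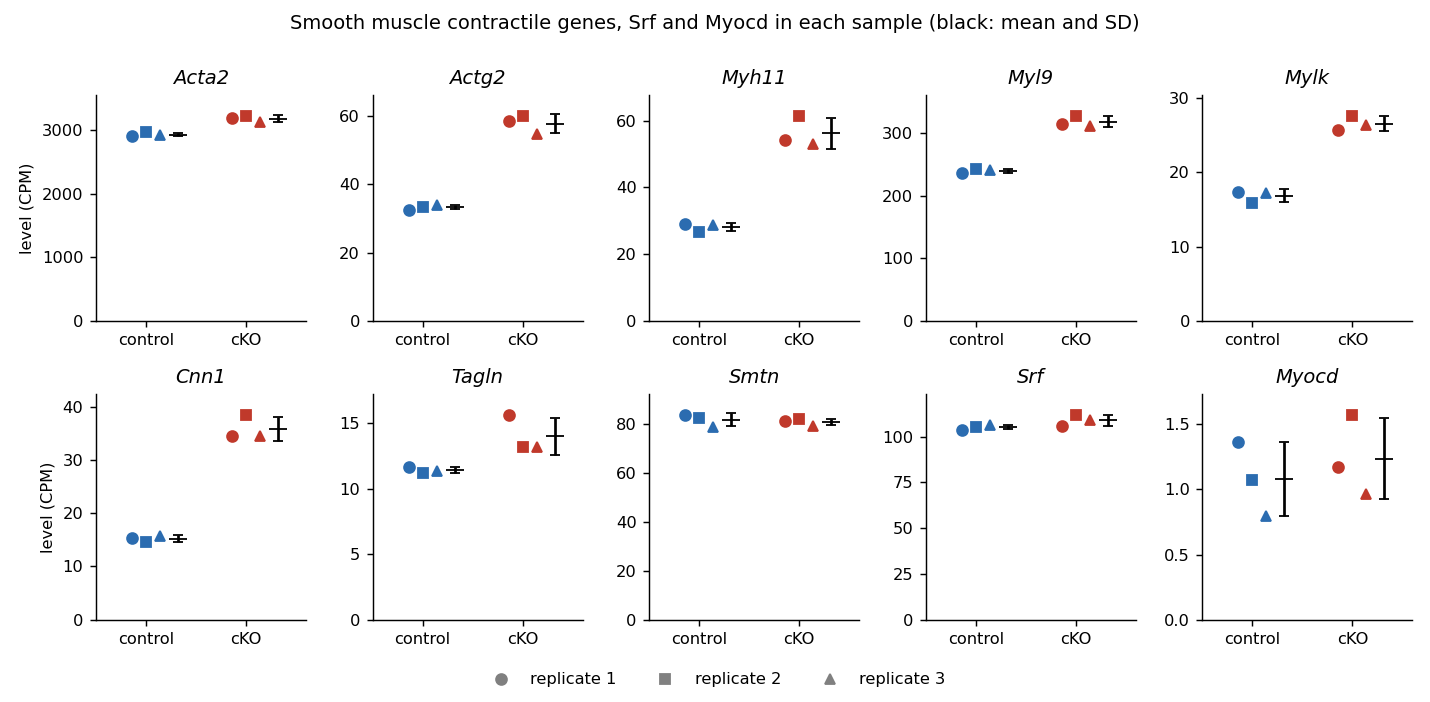
Level in CPM (vertical axis, from 0) of the 10 genes in the 3 control samples (blue) and the 3 cKO samples (red), with the mean and SD of each group in black and a symbol for each replicate. The groups are apart for Acta2, Actg2, Myh11, Myl9, Mylk, Cnn1 and Tagln, and overlap for Smtn, Srf and Myocd.

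Calponin showed the largest rise of the set. Cnn1 (ENSMUSG00000001349, chromosome 9 of mm10, 22099216 to 22109630) encodes an actin-binding inhibitor of myosin ATPase and is among the later markers of smooth muscle differentiation. Control replicates 1, 2 and 3 gave 867, 925 and 968 reads for it, and the cKO replicates 1655, 2275 and 1929. These are 15.3, 14.6 and 15.8 CPM against 34.5, 38.5 and 34.6 CPM. The lowest cKO sample thus lay far above the highest control sample, and cKO replicate 2 was the highest of all. The rise was 2.32-fold, a log2FC of 1.21 ± 0.05 (SE, edgeR adjusted p = 6.4e-10).

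Smooth muscle myosin heavy chain followed. Myh11 (ENSMUSG00000018830, chromosome 16, 14194535 to 14291372) encodes the motor of the smooth muscle thick filament and is among the most restricted markers of the contractile smooth muscle cell. It measured 29.0, 26.7 and 28.6 CPM in control and 54.2, 61.5 and 53.0 CPM in cKO. All 3 cKO samples were well above the control samples, again with replicate 2 highest. The log2FC was 0.98 ± 0.05 (SE, edgeR adjusted p = 5.9e-09). No 75-base window of its transcripts occurs in another annotated gene, the other myosins included.

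The light chain gene and its kinase were both upregulated. Mylk (ENSMUSG00000022836, chromosome 16, 34745210 to 35002420), the calcium-dependent kinase that starts smooth muscle contraction, had 17.4, 15.9 and 17.3 CPM in control and 25.7, 27.7 and 26.4 CPM in cKO. The groups were apart, and the log2FC was 0.63 ± 0.05 (SE, edgeR adjusted p = 3.1e-07). Its substrate Myl9 (ENSMUSG00000067818, chromosome 2, 156775420 to 156781658), whose promoter window is printed above, had 235.8, 242.1 and 241.1 CPM in control and 315.0, 328.3 and 311.7 CPM in cKO. This is a smaller relative rise of a much more abundant transcript, with a log2FC of 0.39 ± 0.03 (SE, edgeR adjusted p = 3.1e-07).

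The smooth muscle actins rose to unequal extents. Actg2 (ENSMUSG00000059430, chromosome 6, 83512905 to 83536265), the gamma actin of gut and other visceral smooth muscle, had 32.6, 33.4 and 33.8 CPM in control and 58.6, 60.2 and 54.7 CPM in cKO. Its groups lay far apart, with a log2FC of 0.77 ± 0.04 (SE, edgeR adjusted p = 5.0e-09). Acta2 (ENSMUSG00000035783, chromosome 19, 34241090 to 34255590), the alpha actin of vascular smooth muscle, was by far the most abundant gene of the set, with 2907, 2963 and 2917 CPM in control and 3185, 3228 and 3128 CPM in cKO. The groups did not overlap, but the difference was small and close to the threshold, with a log2 fold change of 0.09 (standard error 0.03, 95% interval 0.03 to 0.16, adjusted p = 0.0358). With 1 sample left out the adjusted p of Acta2 was above the threshold of 0.05 without control replicate 1 (0.129), control replicate 2 (0.118), control replicate 3 (0.139) or cKO replicate 3 (0.0669). Acta2 RNA was abundant in all 6 samples.

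Among the other actin-binding genes, Tagln rose and Smtn did not pass the test. Tagln (ENSMUSG00000032085, chromosome 9, 45929619 to 45936058) gave 659, 710 and 696 reads in control samples against 749, 780 and 734 in cKO samples, or 11.7, 11.2 and 11.3 CPM against 15.6, 13.2 and 13.2 CPM. Here replicate 1 was the highest cKO sample, and the other cKO samples were near each other and still above all controls. The log2FC was 0.27 ± 0.07 (SE, edgeR adjusted p = 0.0140). Its adjusted p was 0.0643 when control replicate 2 was left out and 0.0575 when control replicate 3 was.
Tagln counts need care. Of its exonic bases 67.9% overlap genes on the opposite strand, mainly the antisense gene Gm48529, and 53.3% of its 75-base windows occur in transcripts of other genes on either strand. Gm48529 had 176 to 194 counts in control and 184 to 278 in cKO, with log2FC at 0.48 (edgeR adjusted p = 0.00466). The library kit keeps strand, but the setting used in the counting is not given in the sources used here. Without strand the reads of both genes cannot be told apart, and they may be counted for the wrong gene or left out. The level of Tagln may therefore be too high or too low.

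Smtn (ENSMUSG00000020439, chromosome 11, 3517523 to 3540612), which encodes a cytoskeletal protein of contractile smooth muscle with shorter and longer isoforms, had 84.0, 82.8 and 78.9 CPM in control and 81.5, 82.0 and 79.4 CPM in cKO. The groups overlapped. The log2 fold change was -0.04 with a 95% interval of -0.11 to 0.03 (adjusted p = 0.508 from edgeR). Of its exonic bases 16.3% overlap genes on the opposite strand, against 6.85% for Mylk and 0 for the other 7 genes apart from Tagln.

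Neither regulator passed the test. Srf (ENSMUSG00000015605, chromosome 17, 46548329 to 46556175) had 103.8, 105.4 and 106.3 CPM in control and 105.7, 111.9 and 109.1 CPM in cKO, with a log2 fold change of 0.03 and a 95% interval of -0.04 to 0.09 (adjusted p = 0.669 from edgeR). The interval is narrow, so that a change of Srf as large as that of Actg2 or Cnn1 lies outside it. Myocd (ENSMUSG00000020542, chromosome 11, 65176561 to 65269989) was barely detected, with 77, 68 and 49 reads in control samples against 56, 93 and 54 in cKO samples. The groups overlapped, and the log2 fold change of 0.19 had a 95% interval of -0.27 to 0.64 (adjusted p = 0.648). A rise as large as that of Myl9 lies within this interval. Without cKO replicate 2 its log2 fold change was -0.037.

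**Figure D2:**
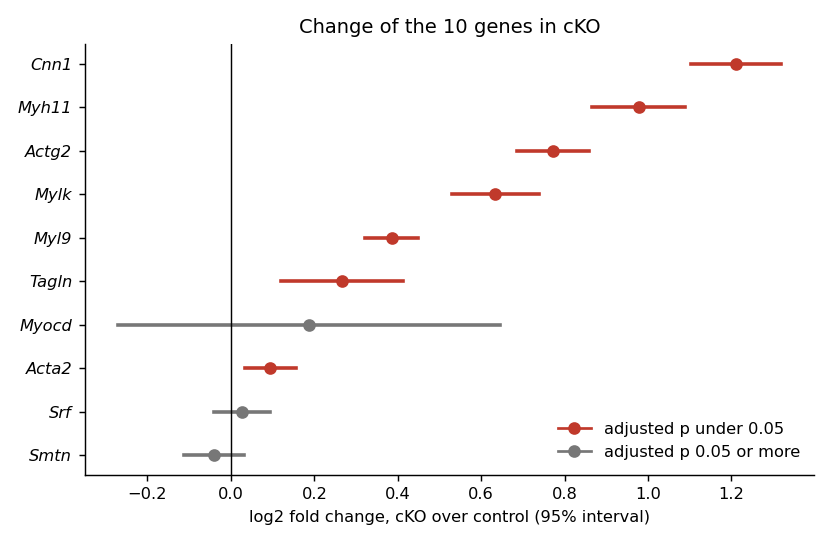
Log2 fold change of cKO over control (horizontal axis) for the 10 genes, with bars for the 95% interval from edgeR's quasi-likelihood fit; red points passed an adjusted p of 0.05. Cnn1 (1.21) and Myh11 (0.98) are farthest to the right, Acta2 (0.09) is just past 0, and the interval of Myocd is the widest.

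Levels per kb of exon ordered the genes over several orders of magnitude. In control, Acta2 had 1334 ± 13.2 CPM per kb (SD, n = 3), Myl9 206.2 ± 2.91 and Srf 36.4 ± 0.439. Actg2 (21.4 CPM per kb) and Smtn (18.7) followed, then Tagln (5.74) and Cnn1 (5.57), whose samples overlapped, and then Myh11 (3.70) and Mylk (1.496). Myocd was last with 0.168 ± 0.0439 CPM per kb. In cKO several neighbours moved. Actg2, at 37.1 ± 1.83 CPM per kb, reached the level of Srf (37.6 ± 1.07) and overlapped with it. Cnn1, at 13.1 ± 0.829 CPM per kb, passed Tagln (7.04 ± 0.713), which now overlapped with Myh11 (7.40 ± 0.612). The exon lengths join all annotated isoforms, from 1162 bases for Myl9 to 11263 for Mylk, so the level of a gene with long, little-used isoforms is understated. The alignment did not split reads over introns, so reads across exon junctions may be lost. Myh11 has 43 exon blocks and Mylk 38, against 4 for Myl9 and 5 for Tagln. The order of such genes is therefore less certain. Depending on the counting settings, which are not given, the level of Tagln may hold antisense reads or lack reads that overlap Gm48529.

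For 8 of the genes, the level was set against a related gene, or for Srf against its cofactor Mrtfa, as a ratio of counts within a sample, which does not depend on the scaling between samples. With 3 samples against 3, the exact two-sided permutation test cannot give a p below 0.1 (adjusted p = 0.125 over the 10 ratios), and 8 ratios reached it. In CPM, 31.4% of all genes tested were apart in either direction, and no such share was computed for ratios. Cnn1 was set against both Cnn2 and Cnn3, and Acta2 against both Acta1 and Actb, so the ratios are not all independent. Cnn1 was higher relative to both of its relatives in every cKO sample. It amounted to 8.81% of the counts of Cnn2 in control and 14.9% in cKO, a difference of 0.76 in the log2 ratio, and to 1.80% and 4.24% of those of Cnn3, a difference of 1.23. Myh11 amounted to 1.80% of the counts of the non-muscle myosin Myh9 in control and 3.41% in cKO, a difference of 0.92. Mylk went from 129.6% to 239.4% of Mylk2, the skeletal muscle light chain kinase (0.89), which itself fell by 0.25 on the log2 scale (adjusted p = 0.00707 from edgeR). Myl9 went from 73.6% to 100.5% of Myl12a, a widely expressed light chain gene (0.45). Of 18 related genes listed 16 were tested, of which 4 were upregulated and 3 downregulated, with a median log2 fold change of -0.04.
The actin ratios pointed both ways. Acta2 was 48.6% of the skeletal actin Acta1 in control and 54.5% in cKO, a difference of 0.17 that was 0.089 without cKO replicate 2. Against the cytoplasmic actin Actb it amounted to 51.7% in control and 47.9% in cKO, a difference of -0.11. Actb was itself upregulated, with log2FC at 0.21 (edgeR adjusted p = 0.000324), Acta1 had one of -0.07 (adjusted p = 0.454), and the cardiac actin Actc1 fell by 0.19 on the log2 scale (adjusted p = 0.0144). Of the counts on all 6 actin genes, Acta2 held 16.7% ± 0.126 in control and 17.2% ± 0.629 in cKO (SD, n = 3), with overlapping samples. Actg2 held 0.190% ± 0.00439 and 0.313% ± 0.0163, and was a minor actin in both groups. No 75-base window of Acta2 or Actg2 occurs in another annotated gene. Of the windows of Actg1 33.5% do, of Myl12a 18.5% and of Cnn3 16.1%. How reads with several matches were counted is not given, so shares and ratios that use these genes are less certain.
The remaining ratios were those of Tagln, Smtn and Srf. Tagln was 7.24% of Tagln2 in control and 8.65% in cKO, with overlapping samples (exact permutation p = 0.2, n = 3 each), and the difference of 0.26 was 0.15 without cKO replicate 1. Smtn against Smtnl2 differed by 0.071 (exact permutation p = 0.6, n = 3 each), and by -0.0076 without control replicate 3, -0.0063 without cKO replicate 1, 0.1313 without control replicate 2 and 0.1422 without cKO replicate 3, so that it has no settled sign. The log2 ratio of Srf to Mrtfa was lower in every cKO sample, with a difference of -0.32.

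**Figure D3:**
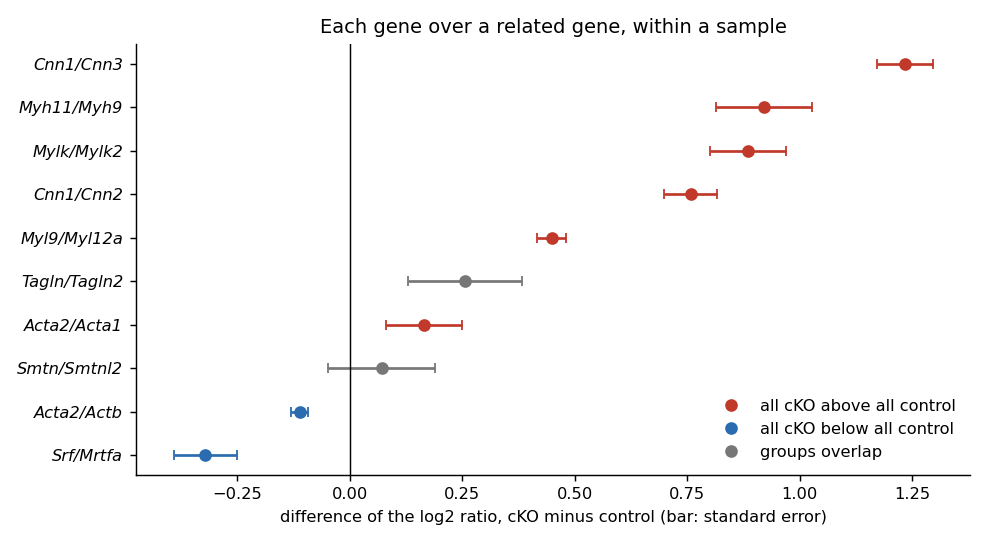
Difference of the log2 ratio of each gene to a related gene, cKO minus control (horizontal axis), with bars for the standard error over 3 samples per group. In 6 ratios every cKO sample lay above every control sample (red), in 2 below (blue), and in 2 the groups overlapped (grey). In CPM, 31.4% of all genes tested were apart in either direction.

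Other genes of the smooth muscle contractile apparatus were examined in a list of 25. Of these, 9 were upregulated, 3 were downregulated and 13 did not pass the test, with a median log2 fold change of 0.07. The genes with the smallest adjusted p included Lmod1, the leiomodin that nucleates actin filaments in smooth muscle, which rose from 15.6 ± 0.543 to 27.1 ± 1.35 CPM (log2 fold change 0.78, adjusted p = 3.2e-08 from edgeR). Ppp1r14a, which encodes the myosin phosphatase inhibitor CPI-17, rose from 1.83 ± 0.143 to 3.49 ± 0.0787 CPM (0.91, adjusted p = 2.0e-05). Caldesmon (Cald1) had a log2 fold change of 0.25, the calcium channel gene Cacna1c 0.44 and tropomyosin Tpm1 0.20. The downregulated genes were Pdlim3 (-0.28), Synpo2 (-0.16) and Des (-0.15), of which Synpo2 and Des were named after their values were seen. Des and Pdlim3 are also major genes of skeletal muscle.

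The SRF cofactors went both ways. Of 8 genes, 3 were upregulated, 1 was downregulated and 4 did not pass the test, with a median log2 fold change of 0.04. Fhl2, a LIM protein that binds SRF, rose from 29.7 ± 0.468 to 49.6 ± 0.925 CPM (log2 fold change 0.72, adjusted p = 3.6e-09 from edgeR). Mrtfa, the actin-regulated coactivator of SRF, rose from 29.3 ± 0.881 to 38.0 ± 3.86 CPM (0.35, adjusted p = 0.000453), while Mrtfb had a log2FC of -0.13 (adjusted p = 0.158). Klf4, known to repress smooth muscle genes, had one of 0.22 (adjusted p = 0.00255). The ternary complex factor Elk4 fell by 0.18 on the log2 scale (adjusted p = 0.00197), and the number of downregulated cofactors was 2 without cKO replicate 2.

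Target genes of SRF were higher where they differed. Of 15 targets known to respond through MRTF, 11 were upregulated, 0 were downregulated and 4 did not pass edgeR's test. Over all genes tested, at any level that passed the filter, 9.38% were upregulated. The list was chosen with earlier results of these data known, so its count is not independent of them. The median log2 fold change of the list was 0.21. Every gene of the list was above 0, as were 11124 of the 22404 genes tested. The 4 targets that did not pass were Tagln2 (0.01), Vcl (0.04), Myh9 (0.06) and Zyx (0.11). Ccn2, a secreted matricellular protein, rose from 421.1 ± 6.07 to 878.5 ± 54.4 CPM (log2 fold change 1.04, adjusted p = 2.3e-10). Thbs1 had a log2 fold change of 0.70, Ccn1 0.60, Itga5 0.55, Cnn2 0.45 and Tpm4 0.22. The list shares Tgfb1i1, Vcl and Flna with that of the contractile apparatus. It shares Actb, Actg1, Cnn2, Tagln2 and Myh9 with the related genes above, which also hold the cofactors Mrtfa and Mrtfb. The counts of these lists are therefore not independent. Ccn1, Ccn2 and Thbs1 are also known targets of other pathways. Of 9 immediate early targets that respond through ternary complex factors, 4 were upregulated and 0 downregulated, with a median of 0.14. Nr4a1 had a log2 fold change of 0.43, Egr1 0.23, Ier2 0.22 and Mcl1 0.16, while Fos was at 0.14 (adjusted p = 0.0679 from edgeR) and Junb at 0.09 (adjusted p = 0.194). No gene of either list was lower at an unadjusted p under 0.05 (0 genes), and the counts of 0 were also found with DESeq2 and with each sample left out.

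**Figure D4:**
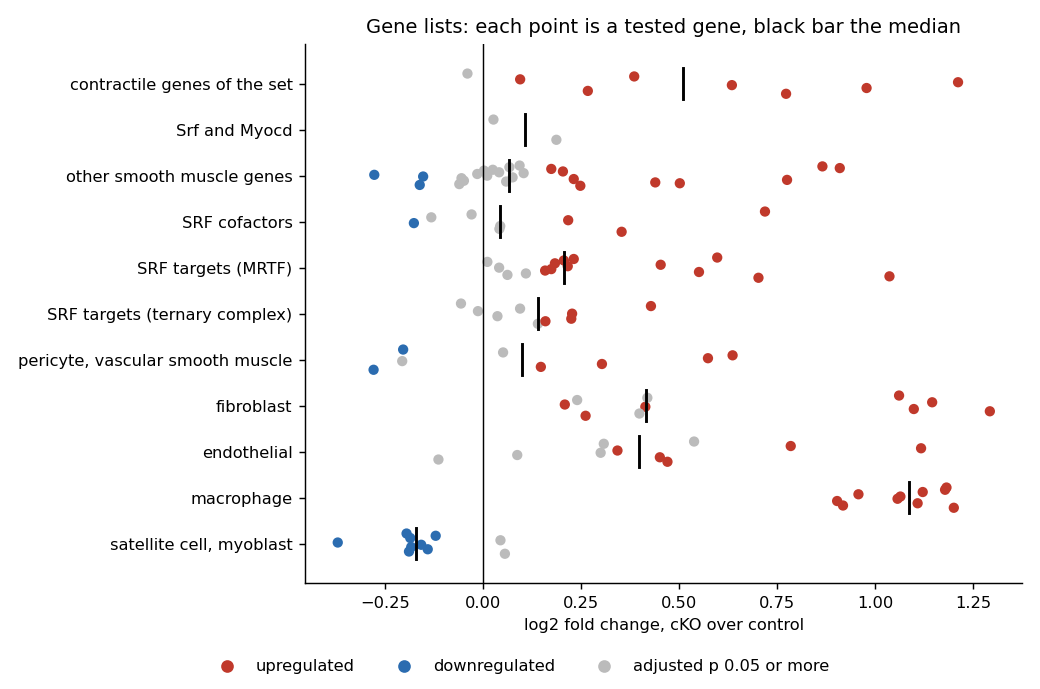
Log2 fold change of cKO over control (horizontal axis) of each tested gene in the contractile set, the lists of related genes and the marker lists (vertical axis), coloured by edgeR's call, with the list's median as a black bar. The contractile genes spread from -0.04 to 1.21, the MRTF targets all lie above 0, and the macrophage markers cluster between 0.90 and 1.20.

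Markers of other cell types that a culture could hold were examined in 4 lists. Pericyte and vascular smooth muscle markers, the cell type in which this gene set is best known, went both ways. Of 10 markers 8 were tested, of which 4 were upregulated, such as Rgs5 (log2 fold change 0.64) and Pdgfrb (0.57), and 2 were downregulated, Notch3 (-0.28) and Abcc9 (-0.20). The latter count was 1 without control replicate 3. Their summed level was 349.2 to 356.9 CPM in control and 382.4 to 432.9 CPM in cKO. The pericyte markers Kcnj8 and Higd1b had 0 to 5 counts in every sample, Cox4i2 7 to 18 and Ndufa4l2 24 to 45.
Of 12 fibroblast markers 10 were tested and 7 were upregulated, among them Col1a1 (1.29), Pdgfra (1.15) and Thy1 (1.06), and their summed level was 1356 to 1441 CPM in control and 1856 to 2060 CPM in cKO. The fibroblast markers Lum and Tcf21 were near 0, with 0 to 2 and 0 counts in control and 5 to 12 and 0 to 1 in cKO. All 10 macrophage markers were upregulated, with a median log2 fold change of 1.09 and a summed level of 111.2 to 116.2 CPM in control and 238.3 to 278.4 CPM in cKO. Endothelial markers summed to 20.9 to 22.6 CPM in control and 31.3 to 36.7 CPM in cKO, and 5 of 10 were upregulated, or 2 without cKO replicate 2 or control replicate 2 and 3 without control replicate 3. The sort that preceded the culture kept cells negative for CD45, TER119 and SCA1, a gate that removes CD45-positive macrophages and SCA1-positive cells. After culture Ptprc, which encodes CD45, had 72 to 94 counts in control and 126 to 169 in cKO, and Ly6a, which encodes SCA1, 175 to 198 and 183 to 211. Whether these marker RNAs came from other cells or from the satellite cells themselves was not tested. Nor was any part of other cells in the rise of the contractile genes. The paper reports a rise of genes of other lineages, Cdh5 and Pdgfra among them, in the Hira-deficient satellite cells. It also reports staining of these cells for VE-Cadherin, the product of Cdh5. Within cKO, replicate 2 had the highest sums of the macrophage, fibroblast, endothelial and pericyte markers and the highest level of 9 of the 10 contractile and regulator genes. The summed MRTF targets were also highest there (19420 CPM, against 17830 and 17920 in cKO replicates 1 and 3). Sums of the satellite cell markers, the list of 25, the SRF cofactors and the related genes were highest in replicate 1. That of the ternary complex targets was highest in replicate 3. Without cKO replicate 2, 7 of the 10 genes were upregulated as before, with Cnn1 at a log2 fold change of 1.16 and Myh11 at 0.91.

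The tested gene with the most similar course over the 6 samples was determined among 20607 genes, as the smallest root mean square difference of log2 CPM centred on the gene's mean. For Actg2 this was Lmod1, the smooth muscle leiomodin described above, at 0.018. Myl9 was nearest to Dstn, which encodes the actin-depolymerizing factor destrin (0.014), and Mylk to Plpp3 (0.021). Cnn1 was nearest to the lysosomal protease gene Ctss (0.022), which rose from 18.6 to 43.0 CPM. The nearest genes of Acta2 (Gm6710), Tagln (Gm44103), Smtn (Sema4b), Srf (D430042O09Rik) and Myocd (Fat3) did not pass the test between the groups. Likeness over 6 samples of 2 groups mostly follows the size of the group difference and does not show a relation between the genes.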

How the data were processed

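RNA-seq was performed on 3 control and 3 cKO samples, which were grouped by their titles. Reads were aligned with Bowtie2 to mm10 and counted with featureCounts by the authors, and the deposited files hold raw read counts per gene. The strand setting and the treatment of reads with several matches are not given in the sources used here. Bowtie2 does not split reads over introns, so short exons may be undercounted, which was not measured. The deposited normalised values and the table of the authors' DESeq2 comparison, which holds fold changes and p-values, were not used. The 10 genes and all lists were chosen with earlier results of these data known.

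Counts were tested with edgeR (4.0.16 in R 4.3.3), using the default filter on low counts, TMM scaling, a quasi-likelihood test of genotype without further terms, and Benjamini-Hochberg adjustment over 22404 genes, with a threshold of 0.05. The intervals of log2 fold changes come from the same fit. Script steps were tested on simulated data with known changes. Up to 6 genes per list were named by smallest adjusted p, besides the genes of the ratios and the nearest gene of each of the 10, of which the one for Myh11 is not reported here. Other list genes and the marker genes given by name were chosen after their values were seen. Exon lengths, positions and overlaps come from GENCODE M21 and promoter windows from RefSeq. Ratios were compared with the exact two-sided permutation test over samples. Alternatives were DESeq2 (1.42.0), its size factors in edgeR, total counts alone, other filters, a replicate block and leaving out each sample. No libraries of the same group were taken as duplicates. The chi-square per degree of freedom between replicates, a measure of difference beyond counting noise, was 2.03 to 9.39. It was lowest for control replicates 2 and 3. The common biological coefficient of variation was 3.92%, so the spread between samples was small. Depth was 47944477 to 63323577 counts. The precision of a gene depends on its own counts and on the spread between samples. Counts ran from 152709 or more per sample for Acta2 down to 49 for Myocd. The standard error of the log2 fold change was 0.029 for Acta2, 0.030 for Myl9, 0.032 for Srf and 0.21 for Myocd.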

Additional observations from a re-analysis of the deposited data

How the results depend on the processing

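The rises of Actg2, Cnn1, Myh11, Myl9 and Mylk passed the threshold under all 12 alternatives. The number of upregulated genes among the 10 was 7 with DESeq2, its size factors, total counts alone and both other filters, and 5 to 7 with a sample left out, where the median log2 fold change was 0.31 to 0.38. None was downregulated under any alternative. The genes that lost their call were Acta2 and Tagln, as given beside their values. Myocd turned from 0.19 to -0.037 without cKO replicate 2 (adjusted p = 0.951 from edgeR). Of the 10 ratios, 6 to 7 had every cKO sample above every control sample with a sample left out, a setting in which smaller groups separate more easily. Over all genes, the number downregulated was 1448, and 917, 934 and 960 without control replicates 1, 2 and 3. The cause was not tested.

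Replicate numbers are shared between the groups, but nothing says that they mark a shared animal or day. The correlations of the deviations of same-numbered samples were -0.0216, -0.0117 and -0.0177, so the numbers were not taken to pair the samples. With a replicate block 6 of the 10 genes were upregulated, and over all genes 1901 were upregulated and 1251 downregulated. Acta2 then had an adjusted p of 0.0771 from edgeR.

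The list counts were recomputed as an alternative added after seeing the data. Upregulated endothelial markers numbered 3 with DESeq2 or the block. Without a filter, 2 SRF cofactors and 5 related genes were downregulated. Myocd had the fewest counts of the 10 genes, with 49 to 93 per sample.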
